A study of Mus musculus with 18 samples.

Results

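The interferon regulatory factor (IRF) genes Irf1, Irf2, Irf3, Irf5, Irf7, Irf8, and Irf9 and the gene Stat2 encode transcription factors of the interferon response, and their RNA was followed in mouse left ventricle (LV) and right ventricle (RV) after cold storage and reperfusion. The genes were chosen by name, with the estimated counts of all transcripts of a gene summed, and they are 8 of the 34989 genes in the data. RNA was sequenced in 18 libraries, 3 for each of LV and RV after 0, 4, or 8 h of storage. The hearts were of C57B/L6 mice, given as 12 weeks of age in the labels and as younger in the study's text, which states that both sexes were used. Every heart, those of the 0 h groups included, was flushed with histidine-tryptophan-ketoglutarate (HTK) preservation solution and perfused ex vivo with Krebs buffer for 1 h after its time in ice-cold HTK, so that the 0 h groups were also reperfused. A heart perfused with buffer outside the body receives no circulating blood cells, and the RNA came from ventricular tissue holding all cell types left in it. No source states that a replicate number names 1 heart, and the p-values measure the spread between these libraries.

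Interferons bind cell surface receptors whose Janus kinases phosphorylate STAT proteins. STAT2 and IRF9, with a further STAT protein, form the complex that binds interferon-stimulated response elements (ISREs) in the promoters of interferon-induced genes. IRF3, IRF5, and IRF7 are activated by phosphorylation downstream of nucleic acid sensors and Toll-like receptors and switch on interferon and cytokine genes, IRF1 and IRF2 bind the same elements with largely opposing effect, and IRF8 directs the development of monocytes and dendritic cells. Genes for several of these factors are themselves induced by interferon, through ISREs or through gamma-activated sites (GAS), which bind STAT dimers, so that the response feeds back on its own regulators.

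The promoter windows of the 8 genes (RefSeq, build GRCm38.p6, 250 bases before to 50 after a start of transcription, 11 windows in all) were searched on both strands for 4 motifs that represent the inputs described above. The ISRE core, GAAANNGAAA, was found in 2 of the 11 windows (Irf2 and Stat2) and in 3.44% of all 32851 windows. The GAS motif, TTCNNNGAA, was found in 3 (Irf1, Irf2, and Irf8) and in 8.30% of all windows. The NF-kB consensus was found in 2 (Irf1 and Irf2) and in 8.46% of all windows, and the AP-1 motif, TGANTCA, in none and in 7.81%. The stretches with ISRE or GAS matches are printed because these 4 genes differed in how they moved in the stored hearts, with capitals for the matches (the GAS and then the NF-kB match in Irf1, the ISRE and then the GAS match in Irf2, both GAS matches in Irf8, and the ISRE match of Stat2, which reads GAAANNGAAA on the opposite strand).
Irf1, chr11:53769909-53770013, plus strand: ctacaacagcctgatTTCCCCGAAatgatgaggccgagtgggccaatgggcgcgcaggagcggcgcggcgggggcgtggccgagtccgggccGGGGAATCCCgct
Irf2, chr8:46739495-46739544, plus strand: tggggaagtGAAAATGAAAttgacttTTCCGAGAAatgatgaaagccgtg
Irf8, chr8:120736172-120736228, plus strand: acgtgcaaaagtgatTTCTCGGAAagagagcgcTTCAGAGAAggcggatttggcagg
Stat2, chr10:128270261-128270300, plus strand: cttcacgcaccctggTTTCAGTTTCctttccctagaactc

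The NF-kB match of Irf1 reads as the consensus on both strands. The windows of Irf3, Irf5, Irf7, and Irf9 held none of the 4 motifs, which says only that these letters were not in these windows.

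The libraries held 22552581 to 46236771 estimated counts, and each of the 8 genes had between 104 and 29225 in every library and passed the filter on low counts in every fit. Of all 15093 genes tested over the 18 libraries, 345 (2.29%) were more than 2-fold higher in the library of replicate 3 than in both others in each of the 4 stored groups, and the results below are therefore given with and without those libraries. The summed level of 4 Y-linked genes was 4.64 to 6.73 CPM in 6 libraries, those of replicate 2 at 0 h and of replicate 3 at 4 h and 8 h in both ventricles, and 132 to 196 CPM in the other 12. Among stored libraries a low Y-linked level thus went with replicate 3 alone, so that sex and replicate 3 cannot be told apart there. The fits without the stored libraries of replicate 3 keep no stored library with a low Y-linked level, but keep replicate 2 of 0 h. The 6 cardiomyocyte markers (such as Myh6 and Tnnt2) summed to 50532 to 63392 CPM at 0 h, 51420 to 57344 CPM at 4 h, and 23514 to 50504 CPM at 8 h, with the lowest value in RV replicate 3 at 8 h. Transcripts of mitochondrial genes took 24.1 to 28.3% of the counts in LV at 0 h, 24.9 to 26.4% at 4 h, and 32.0 to 34.4% at 8 h. In RV they took 22.7 to 32.6%, 26.1 to 27.7%, and 33.3 to 34.2%, so that in both ventricles this share was higher at 8 h than at 0 h or 4 h with no overlap. The part of either measure in the results was not tested.

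After 8 h of storage, RNA of 6 of the 8 genes (Irf1, Irf5, Irf7, Irf8, Irf9, and Stat2) was higher than at 0 h in both ventricles. The smallest rise was that of Irf5 (2.28-fold in LV, 2.71-fold in RV) and the largest that of Irf7 (13.2-fold and 24.6-fold). Irf8 was the gene called at 4 h in both ventricles. Irf2 was not called in either ventricle and had its highest levels in the stored libraries of replicate 3, and Irf3 was not called in any comparison. Levels are CPM, counts scaled to a common library size after correction by the trimmed mean of M-values. A gene was called when its fold change was over 1.5 and its Benjamini-Hochberg adjusted p in the quasi-likelihood test of edgeR, over all genes, was under 0.1. Fold changes are log2 values of stored against 0 h libraries, ± SE, from the 9 libraries of a ventricle, and the levels of a group are given in the order of replicates 1, 2, and 3. Gene positions are those of GENCODE M21 on GRCm38. In the plot of levels, the genes differ in how far replicate 3 stands above the others in stored hearts. For Irf1 at 8 h it was 1.90 (LV) and 2.07 (RV) times the higher of the other libraries. For Irf5 at 8 h these ratios were 1.72 and 1.85.

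**Figure D1:**
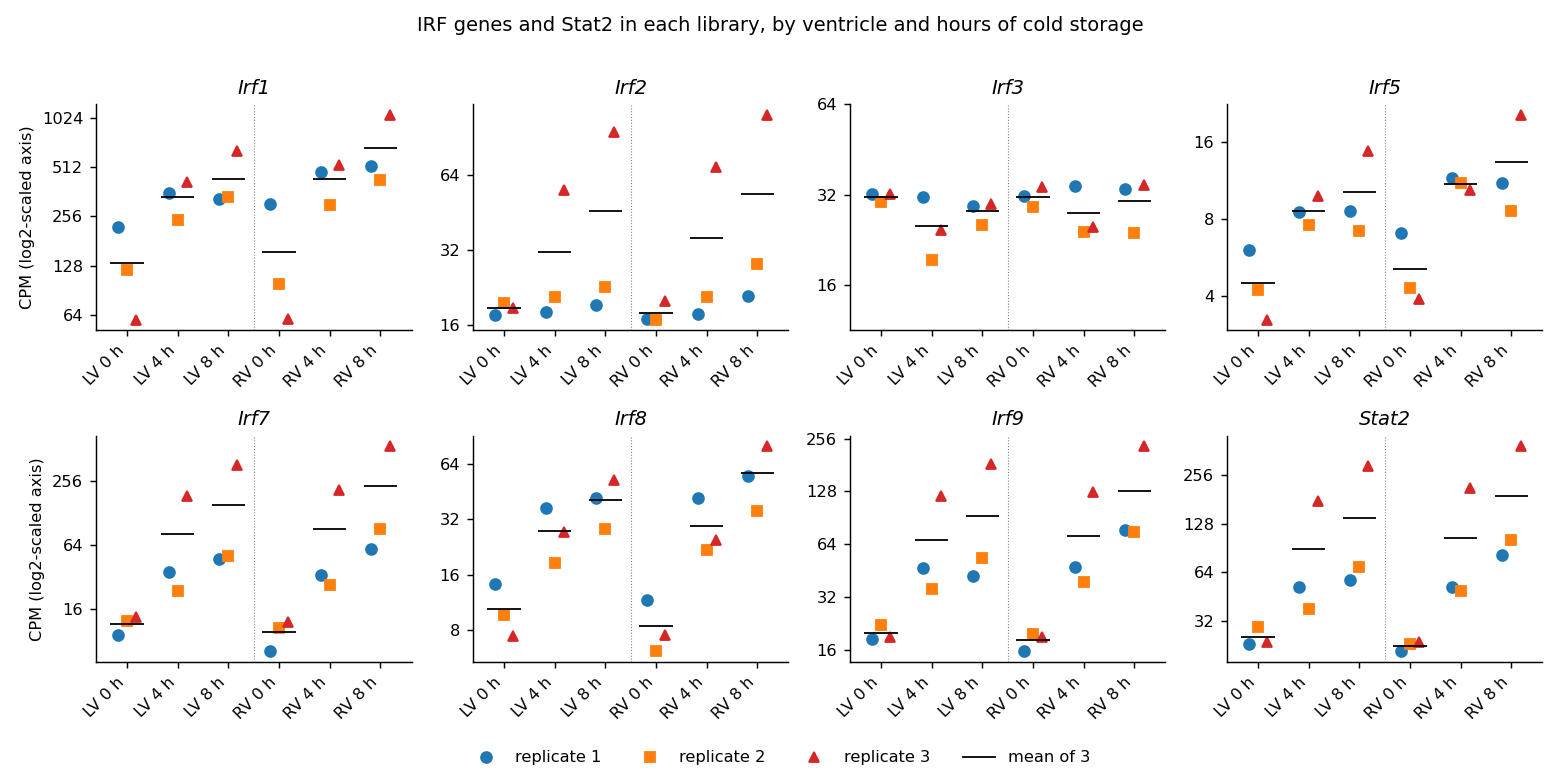
Level of each gene (CPM, log2-scaled axis) in every library, by ventricle and hours of storage, with a marker for each replicate number and a bar for the mean of 3 libraries. Irf2, Irf7, Irf9, and Stat2 had replicate 3 more than 2-fold above both other libraries in all 4 stored groups. Irf1, Irf5, and Irf8 had higher mean levels in stored hearts without such a gap in all 4 groups. For Irf1 the gap was over 2-fold in RV at 8 h (2.07).

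Stat2 (ENSMUSG00000040033.16, chr10:128270559-128292849, plus strand) encodes the STAT protein specific to type I and type III interferon signaling. In LV it was at 23.2, 29.4, and 23.8 CPM at 0 h, 52.1, 38.2, and 177 CPM at 4 h, and 57.1, 69.1, and 290.2 CPM at 8 h. The RV libraries had 20.8, 23.1, and 23.7 CPM at 0 h, 52.0, 48.9, and 212 CPM at 4 h, and 82.1, 102, and 385 CPM at 8 h. The 0 h libraries lay close together, every stored library was above every 0 h library of its ventricle, and replicate 3 was 3.40 to 4.20 times the higher of the other two libraries in the stored groups. The log2 fold change in LV was 1.81 ± 0.71 (adjusted p = 0.268) at 4 h and 2.45 ± 0.73 (adjusted p = 0.0982) at 8 h, the second called. The RV values were 2.23 ± 0.72 (adjusted p = 0.106) at 4 h, not called, and 3.12 ± 0.75 (adjusted p = 0.026) at 8 h, called. With the replicate number as a block, the RV difference at 4 h was 1.76 ± 0.41 (adjusted p = 0.0363) and was called. For this and the other genes, such a block joins different hearts across storage times and is not a pairing by animal. Stat2 was called in all 4 comparisons, with smaller folds, when the stored libraries of replicate 3 were left out. Its log2 fold changes were then 0.83 (adjusted p = 0.04) and 1.32 (adjusted p = 0.0036) in LV at 4 and 8 h. For RV they were 1.16 (adjusted p = 0.00329) and 2.03 (adjusted p = 0.000125).

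Irf9 (ENSMUSG00000002325.15, chr14:55603571-55610030, plus strand) encodes the DNA-binding partner of STAT2. In LV its level was 18.5, 22.2, and 19.0 CPM at 0 h, 46.7, 35.5, and 119.9 CPM at 4 h, and 42.0, 53.2, and 182 CPM at 8 h. In RV its level was 15.7, 19.8, and 18.9 CPM at 0 h, 47.4, 39.1, and 127 CPM at 4 h, and 77.2, 75.5, and 232 CPM at 8 h. As for Stat2, no stored library overlapped the 0 h libraries of its ventricle, and replicate 3 was 2.57 to 3.43 times the higher of the other two. Irf9 was called in LV at 8 h, 2.22 ± 0.61 (adjusted p = 0.08), but not at 4 h, 1.77 ± 0.60 (adjusted p = 0.204). For RV it was called at 4 h, 1.99 ± 0.56 (adjusted p = 0.071), and at 8 h, 2.87 ± 0.58 (adjusted p = 0.0138). Leaving out the stored libraries of replicate 3 gave 4 calls, at 1.05 (adjusted p = 0.0141) and 1.27 (adjusted p = 0.00336) in LV and 1.25 (adjusted p = 0.00301) and 2.08 (adjusted p = 0.000136) in RV. The annotated span of Irf9 overlaps that of Rnf31 on the same strand, and reads in any shared transcript sequence would be divided between them.

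Irf7 (ENSMUSG00000025498.15, chr7:141262706-141266481, minus strand) encodes an interferon-induced factor that amplifies the expression of interferon genes. It was at 9.10, 12.1, and 13.5 CPM at 0 h, 35.5, 23.3, and 183 CPM at 4 h, and 46.5, 50.4, and 359 CPM at 8 h in LV. It was at 6.34, 10.6, and 12.0 CPM at 0 h, 33.4, 26.9, and 208 CPM at 4 h, and 57.6, 89.6, and 538 CPM at 8 h in RV. It had the largest fold changes of the 8 genes in all 4 comparisons with all libraries, and replicate 3 stood 5.15 to 7.12 times as high as the higher of the other two libraries. The log2 difference was 2.81 ± 0.98 (adjusted p = 0.209) in LV at 4 h and 3.23 ± 1.03 (adjusted p = 0.102) in RV at 4 h, neither called. At 8 h it was 3.72 ± 1.01 (adjusted p = 0.0788) in LV and 4.62 ± 1.10 (adjusted p = 0.0251) in RV, both called. In RV at 4 h the fit with the replicate block gave 2.51 ± 0.51 (adjusted p = 0.0239), a call. All 4 differences were called when the stored libraries of replicate 3 were left out. The values were then 1.35 (adjusted p = 0.0153) and 2.08 (adjusted p = 0.0011) in LV and 1.64 (adjusted p = 0.00989) and 2.94 (adjusted p = 0.000399) in RV, with smaller folds and lower adjusted p than before. At 4 h they were then below those of Irf8 (1.40 in LV and 1.91 in RV).

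Irf1 (ENSMUSG00000018899.16, chr11:53770014-53778374, plus strand) encodes a factor induced by interferon gamma and by NF-kB signals. In LV it was at 219.6, 119, and 59.5 CPM at 0 h, 356, 244, and 417 CPM at 4 h, and 326, 337, and 641 CPM at 8 h. RV had 303, 98.7, and 60.2 CPM at 0 h, 481, 299, and 526 CPM at 4 h, and 519.8, 426, and 1075 CPM at 8 h. Among the 0 h libraries of each ventricle, replicate 1 was the highest and replicate 3 the lowest, and in RV at 4 h replicate 2 lay below replicate 1 of 0 h. Irf1 was called at 8 h in LV, 1.73 ± 0.45 (adjusted p = 0.0716), and in RV, 2.18 ± 0.60 (adjusted p = 0.043). At 4 h the differences were 1.36 ± 0.45 (adjusted p = 0.186) and 1.52 ± 0.59 (adjusted p = 0.166) and were not called. No call was left without the stored libraries of replicate 3, with 1.33 (adjusted p = 0.143) in LV and 1.63 (adjusted p = 0.102) in RV at 8 h.

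Irf2 (ENSMUSG00000031627.9, chr8:46739732-46847458, plus strand) encodes the counterpart of IRF1 at shared elements. In LV it was at 17.7, 19.6, and 18.8 CPM at 0 h, 18.2, 20.8, and 55.7 CPM at 4 h, and 19.3, 22.8, and 95.3 CPM at 8 h. The levels in RV were 17.0, 16.8, and 20.1 CPM at 0 h, 17.8, 20.8, and 68.8 CPM at 4 h, and 21.1, 28.3, and 112 CPM at 8 h. Outside the stored libraries of replicate 3 the 14 values lay between 16.8 and 28.3 CPM, and the library of replicate 3 was 2.67 to 4.19 times the higher of the other two in the stored groups. Irf2 was not called in either ventricle, with 1.29 ± 0.62 (adjusted p = 0.248) in LV and 1.63 ± 0.69 (adjusted p = 0.146) in RV at 8 h. For RV at that time, where the 3 libraries lay above those of 0 h, the fit with the replicate block gave 1.15 ± 0.38 (adjusted p = 0.0657), a call. With the stored libraries of replicate 3 left out, the value was 0.18 (adjusted p = 0.493) in LV and 0.46 (adjusted p = 0.136) in RV at 8 h.

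Irf3 (ENSMUSG00000003184.15, chr7:44997648-45002848, plus strand) encodes a factor that is present before stimulation and is switched on by phosphorylation, which RNA levels do not report. In LV it was at 32.3, 30.2, and 32.2 CPM at 0 h, 31.5, 19.4, and 24.4 CPM at 4 h, and 29.4, 25.4, and 29.8 CPM at 8 h. Levels in RV were 31.7, 29.0, and 33.9 CPM at 0 h, 34.2, 24.1, and 24.9 CPM at 4 h, and 33.4, 23.9, and 34.5 CPM at 8 h. The groups overlapped except in LV at 8 h, where the 3 libraries lay just below those of 0 h. No difference was called. The log2 fold change was -0.33 ± 0.16 (adjusted p = 0.378) and -0.15 ± 0.16 (adjusted p = 0.601) in LV at 4 and 8 h. The same values in RV were -0.18 ± 0.19 (adjusted p = 0.718) and -0.01 ± 0.19 (adjusted p = 0.968). The annotated span of Irf3 overlaps that of Bcl2l12 on the opposite strand. Whether their transcripts share sequence was not checked. The counting is not stated to use strand, so that reads in any shared part could not be told apart. The same holds for Irf1 with Gm17334, Irf2 with 3 genes of the opposite strand (Gm31172, Gm45479, and Gm45481), Irf5 with Tnpo3, and Irf7 with Phrf1. Irf8 overlaps Gm20388 on the same strand, and no annotated gene overlaps Stat2.

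Irf5 (ENSMUSG00000029771.12, chr6:29526625-29541871, plus strand) encodes a factor activated through MyD88 that drives inflammatory cytokine genes, mainly in myeloid and B cells. It was at 6.06, 4.20, and 3.22 CPM at 0 h, 8.50, 7.63, and 9.83 CPM at 4 h, and 8.63, 7.18, and 14.9 CPM at 8 h in LV. For RV the levels were 7.08, 4.30, and 3.88 CPM at 0 h, 11.6, 11.1, and 10.4 CPM at 4 h, and 11.1, 8.61, and 20.6 CPM at 8 h. Each stored library was above each 0 h library of its ventricle, and at 4 h the 3 libraries lay close together. Irf5 was called in RV at 4 h, 1.12 ± 0.34 (adjusted p = 0.0878), and 8 h, 1.44 ± 0.34 (adjusted p = 0.0251). The LV change was called at 8 h, 1.19 ± 0.30 (adjusted p = 0.0644), but not at 4 h, 0.95 ± 0.30 (adjusted p = 0.172). Left without the stored libraries of replicate 3, Irf5 was called in RV, at 1.16 (adjusted p = 0.0267) and 0.96 (adjusted p = 0.0447), and not in LV at 8 h, at 0.81 (adjusted p = 0.116).

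Irf8 (ENSMUSG00000041515.10, chr8:120736358-120756694, plus strand) encodes a factor of monocyte and dendritic cell development. It was at 14.3, 9.70, and 7.47 CPM at 0 h, 36.9, 18.5, and 27.5 CPM at 4 h, and 41.9, 28.3, and 52.5 CPM at 8 h in LV. RV libraries were at 11.6, 6.14, and 7.57 CPM at 0 h, 41.8, 21.9, and 24.9 CPM at 4 h, and 55.0, 35.7, and 80.1 CPM at 8 h. Stored and 0 h libraries did not overlap, and replicate 3 was 0.594 to 1.46 times the higher of the other two, below it at 4 h and above it at 8 h. Irf8 was called in all 4 comparisons. Its log2 fold change was 1.40 ± 0.32 (adjusted p = 0.0797) and 1.97 ± 0.33 (adjusted p = 0.0191) in LV at 4 and 8 h. The RV changes were 1.81 ± 0.37 (adjusted p = 0.0262) and 2.79 ± 0.38 (adjusted p = 0.00328). It was called in all 4 without the stored libraries of replicate 3 too, at 1.40 (adjusted p = 0.065), 1.74 (adjusted p = 0.0241), 1.91 (adjusted p = 0.0102), and 2.43 (adjusted p = 0.00214).

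**Figure D2:**
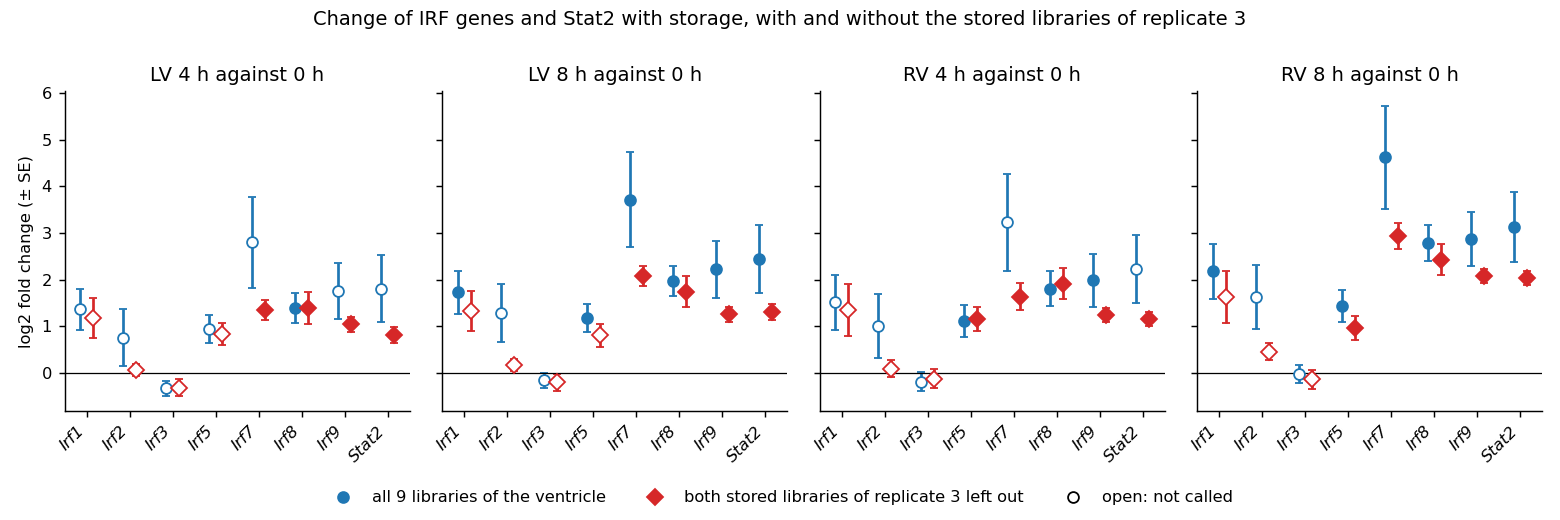
Log2 fold change (± SE) of each gene at 4 h and 8 h against 0 h in LV and RV, from all 9 libraries of a ventricle (circles) and without the stored libraries of replicate 3 (diamonds), with filled symbols for called differences. Irf7 in RV at 8 h was at 4.62 with all libraries and at 2.94 without replicate 3, while Irf8 moved only from 2.79 to 2.43 and Irf2 from 1.63 to 0.46.

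Counted together, 1 of the 8 genes had a called rise in LV at 4 h (2.40% of the 14564 genes tested there did) and 6 did at 8 h (5.46%). The RV counts were 3 at 4 h (6.17% of 14622 genes) and 6 at 8 h (13.0%), and none was called lower at any of these times (0.398% and 1.26% of genes were in LV, and 3.91% and 5.26% in RV). Over the 8 genes the median log2 fold change was 1.38 and 1.85 in LV and 1.66 and 2.48 in RV at 4 and 8 h, and that of all genes tested lay between -0.0719 and 0.00338. The stored libraries all lay above those of 0 h for 6 genes in LV at each time (12.5% and 14.5% of all genes at 4 and 8 h) and for 5 and 7 in RV (15.3% and 18.2%). With the replicate block, RV had 5 called at 4 h (8.45% of genes) and 7 at 8 h (15.5%). Leaving out the stored libraries of replicate 3 gave 4 calls in LV at each time (4.50% of 14674 genes at 4 h and 4.74% at 8 h). It gave 5 in RV at each time (8.10% of 14685 genes at 4 h and 10.9% at 8 h). The LV counts depended on single libraries: at 8 h none was called without replicate 2 of 0 h, 1 without replicate 3 of 0 h or of 8 h, and 3 without replicate 1 of 0 h or of 4 h. At 4 h the call of Irf8 was lost without replicate 2 or 3 of 0 h, replicate 1 or 3 of 4 h, or replicate 1 of 8 h. The LV count at 4 h was 4 without replicate 3 of 8 h and 2 without replicate 1 of 0 h. In RV at 4 h none was called without replicate 2 or 3 of 0 h, 1 without replicate 1 or 3 of 4 h, and 5 without replicate 2 or 3 of 8 h. In RV at 8 h 2 were called without replicate 2 of 0 h. The share of all genes called in these fits with a library left out is not given here. A loss of calls among the 8 genes therefore cannot be told apart from a loss over all genes.

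The means of 7 of the 8 genes were highest in RV at 8 h, and the exception was Irf3, highest in LV at 0 h. Between 4 h and 8 h none of the 8 was called in either ventricle by edgeR, with or without the replicate block, or by DESeq2, and of all genes 0% were called by edgeR without the block. The count of the 8 at an unadjusted p under 0.05 was 0 in LV and 1 in RV (Irf8, log2 difference 0.98 ± 0.36 (adjusted p = 0.599)). All 8 differences were above 0, with the lowest for Irf3 (0.18 LV, 0.17 RV) and the highest for Irf7 (0.91 LV, 1.39 RV), but the libraries of 4 h and 8 h overlapped for every gene. Without replicate 3 of 8 h, 6 of the LV differences turned negative (Irf1, Irf2, Irf5, Irf7, Irf9, and Stat2) and 4 of the RV ones (Irf2, Irf5, Irf7, and Stat2). Those fits kept replicate 3 of 4 h. With both stored libraries of replicate 3 left out, Irf7 was at 0.72 in LV and 1.30 in RV, and Stat2 at 0.49 and 0.88. Below 0 were then only Irf5 (-0.024 in LV and -0.19 in RV) and Irf3 in RV (-0.015), and none was called.

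LV and RV were compared at each storage time, as the study asked whether the ventricles respond alike. Without the replicate block none of the 8 was called at any time by edgeR or DESeq2 (edgeR called 0.159%, 0.0133%, and 0.0331% of 15093 genes at 0, 4, and 8 h), and none had an unadjusted p under 0.05. Same-numbered LV and RV libraries deviated together, with mean correlations of 0.442, 0.562, and 0.600 at 0, 4, and 8 h. For LV against RV the replicate block is the same-numbered pair at a storage time, and the fit compares within these pairs. In these pairs RV was the higher in 8 of 24 (8 genes in 3 pairs, which share libraries) at 0 h, in 19 at 4 h, and in 23 at 8 h. The share of such pairs over all genes is not given here, so that these counts cannot be read as particular to the 8 genes. With the block, none of the 8 was called at 0 h or 4 h (1.85% and 1.93% of genes were). At 8 h Irf1, -0.61 ± 0.13 (adjusted p = 0.00788), Irf7, -0.60 ± 0.10 (adjusted p = 0.00228), and Irf9, -0.59 ± 0.09 (adjusted p = 0.0015), were lower in LV than in RV (6.53% of genes were called lower and 2.25% higher). Stat2, -0.51 ± 0.09 (adjusted p = 0.00213), Irf8, -0.47 ± 0.11 (adjusted p = 0.0111), Irf5, -0.39 ± 0.10 (adjusted p = 0.0182), and Irf2, -0.24 ± 0.08 (adjusted p = 0.0611), were under the fold minimum. RV replicate 3 at 8 h, the library with the lowest cardiomyocyte marker sum (23514 CPM, against 42564 and 50504 CPM in the other RV libraries), had the highest level of each of the 8 genes among the 18 libraries. Without the stored pairs of replicate 3, the 8 h difference was -0.52 (adjusted p = 0.0245) for Irf1, -0.58 (adjusted p = 0.00584) for Irf7, and -0.71 (adjusted p = 0.000377) for Irf9, of which only Irf9 passed the fold minimum. With 1 pair left out at a time, a single gene was called without the 8 h pair of replicate 1 or of replicate 3.

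The change from 0 h to 8 h was smaller in LV than in RV for Irf7, -0.87 ± 0.15 (adjusted p = 0.00688), Irf8, -0.76 ± 0.17 (adjusted p = 0.0203), Irf9, -0.71 ± 0.14 (adjusted p = 0.0105), and Stat2, -0.67 ± 0.13 (adjusted p = 0.00952), in the fit with the replicate block (4.72% of 15093 genes were called in this direction). For Irf1 the value was -0.52 ± 0.19 (adjusted p = 0.122), for Irf2 -0.29 ± 0.12 (adjusted p = 0.191), for Irf3 -0.11 ± 0.11 (adjusted p = 0.597), and for Irf5 -0.20 ± 0.15 (adjusted p = 0.475). The pairs show the values behind this: the log2 ratio of LV to RV for Irf7 in replicates 1, 2, and 3 was 0.52, 0.20, and 0.17 at 0 h and -0.31, -0.83, and -0.58 at 8 h, so that LV was the higher in every pair at 0 h and the lower in every pair at 8 h. Irf9 and Stat2 were also higher in LV in all 3 pairs at 0 h and lower in all 3 at 8 h. In replicate 3 at 0 h, however, their ratios were near 0, at 0.0107 for Irf9 and 0.0087 for Stat2. Without the block the 4 differences were -0.86, -0.80, -0.61, and -0.64, none called. Without the stored pairs of replicate 3 and with the block they were -0.86 (adjusted p = 0.00855), -0.67 (adjusted p = 0.0155), -0.83 (adjusted p = 0.00159), and -0.71 (adjusted p = 0.00469), all called. For the change from 0 h to 4 h none of the 8 was called with the block (0.305% of genes were) or without it.

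**Figure D3:**
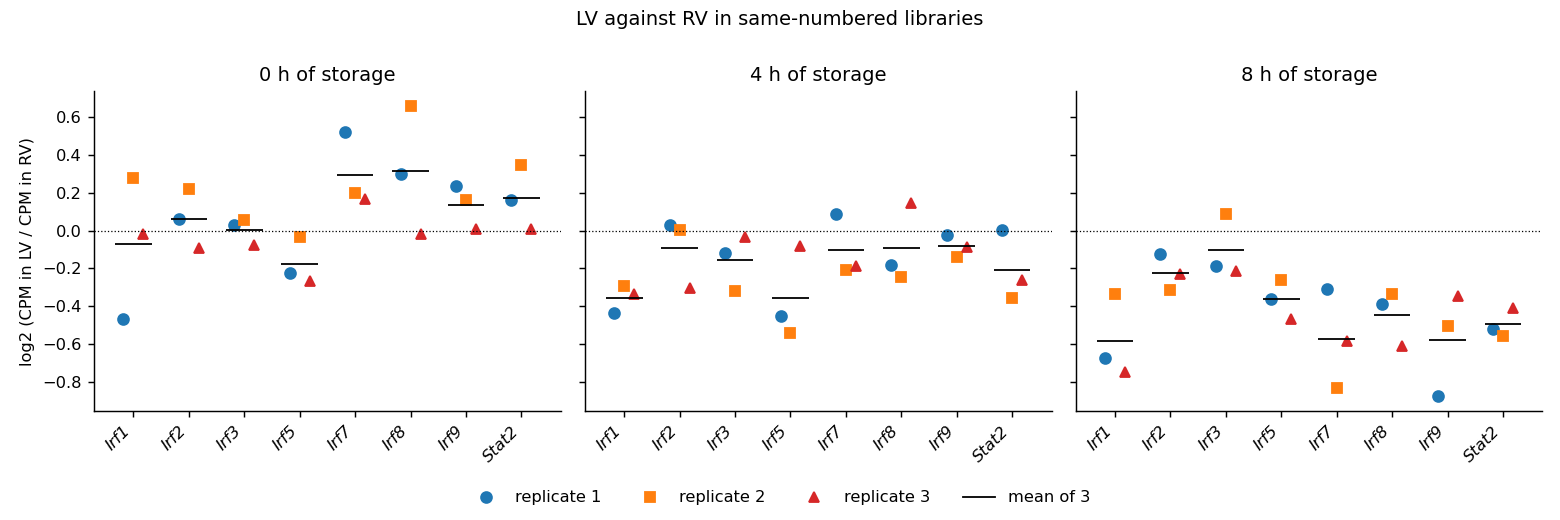
Log2 ratio of the level (CPM) in LV to that in RV for same-numbered libraries at 0, 4, and 8 h of storage, with a marker for each replicate number and a bar for the mean of 3 pairs. Values below the dotted line are higher in RV, which were 8 of 24 at 0 h, 19 of 24 at 4 h, and 23 of 24 at 8 h. The share over all genes is not given beside these counts.

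The deposited counts are per transcript, which shows what the summed values rest on. For Irf1, Irf2, Irf5, Irf8, and Stat2 a single protein-coding transcript held most of the estimated counts over the 18 libraries, 96.7% (Irf1-202), 91.2% (Irf2-201), 85.4% (Irf5-201), 91.6% (Irf8-201), and 83.3% (Stat2-201). Irf9 was spread over several, with 50.9% in Irf9-202. Irf3 had its leading transcript, Irf3-207, annotated as a retained intron, with 39.1%. All retained-intron transcripts of Irf3 together held 59.3 to 64.3% of its counts at 0 h and 52.8 to 68.0% in stored libraries. In Irf7 the protein-coding transcripts together held 33.2 to 74.3% (median 60.0%) of the counts in the 6 libraries of 0 h and 29.6 to 38.2% (median 33.3%) in the 12 stored libraries, and the retained-intron transcripts 25.7 to 59.4% (median 39.5%) and 54.8 to 70.3% (median 64.0%). The transcript Irf7-201 held 21.9 to 61.9% (median 45.2%) at 0 h and 5.30 to 26.4% (median 13.4%) after storage. RV replicate 2 of 0 h, at 33.2% protein-coding, lay within the range of the stored libraries, and the shares at 0 h rest on 214 to 434 estimated counts of the gene a library. The level carried by protein-coding transcripts of Irf7 was 3.51 to 8.49 CPM at 0 h and 8.89 to 178 CPM in stored libraries, so that it was higher in each stored library than in each 0 h library. In Irf9 and Stat2 the protein-coding shares overlapped, at 77.5 to 89.3% (median 82.5%) and 75.0 to 84.1% (median 80.8%) for Irf9 and 79.4 to 86.1% (median 82.0%) and 77.2 to 85.6% (median 81.9%) for Stat2. Shares between overlapping transcripts are estimates of the pseudoalignment and were not tested.

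**Figure D4:**
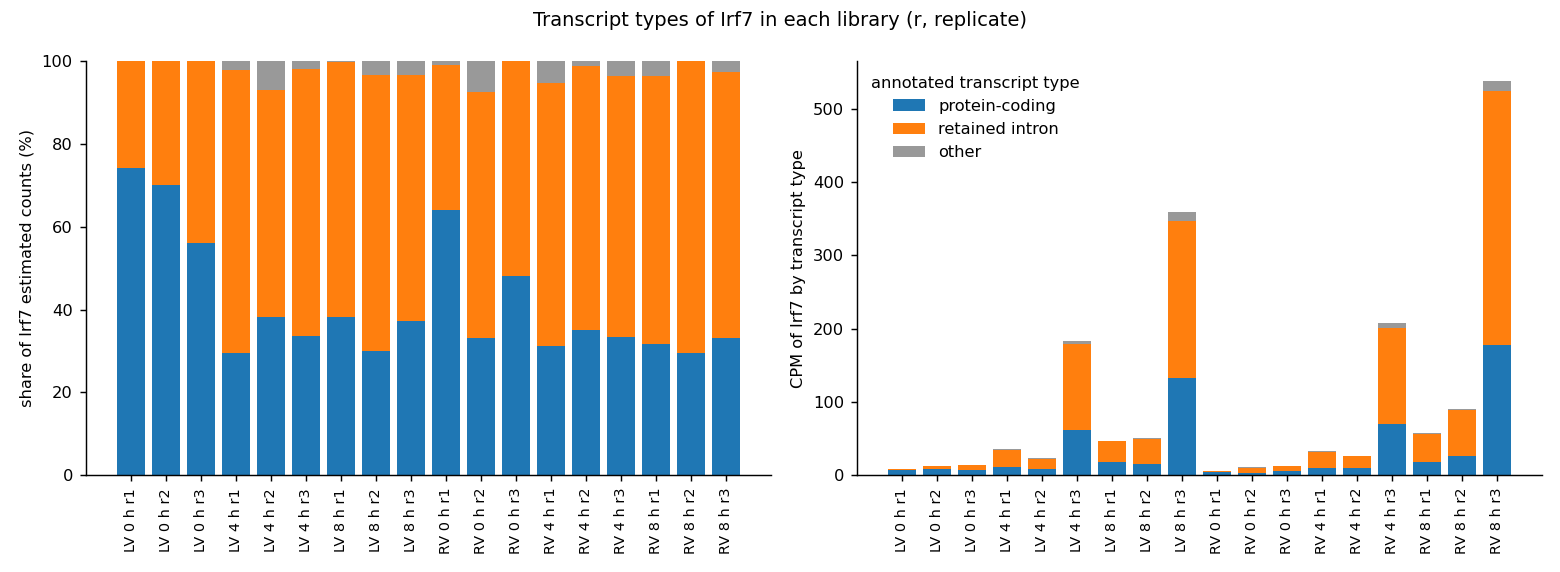
Transcript types of Irf7 in each library, as shares of its estimated counts (left, %) and as CPM (right), with protein-coding transcripts at the bottom, those annotated as retained introns above, and others on top. Protein-coding transcripts held 33.2 to 74.3% at 0 h and 29.6 to 38.2% after storage.

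Levels of different genes were compared per length, as TPM, which scale counts by transcript length as well (mean ± SD of 3 libraries). At 0 h in LV Irf1 was the highest of the 8, at 90.0 ± 51.6 TPM, followed by Irf3 at 44.5 ± 2.03 TPM, with a spread of Irf1 that reached the level of Irf3. Stat2, Irf2, and Irf9 were at 13.6 ± 3.36, 11.7 ± 1.79, and 11.2 ± 1.60 TPM and did not differ beyond their spread, and Irf7, Irf8, and Irf5 followed, at 8.70 ± 1.49, 6.19 ± 2.19, and 3.28 ± 0.822 TPM. The order at 0 h was the same in RV. By group means, Irf7 stood second behind Irf1 after 4 or 8 h in both ventricles, and Irf3 behind Stat2 and Irf9. At 4 h the places of Irf7 and Irf3 rested on replicate 3. In replicates 1 and 2 at 4 h, Irf7 was at 24.7 and 16.5 TPM in LV and 23.2 and 19.4 TPM in RV. Irf3 was higher there, at 39.3 and 23.4 TPM in LV and 38.9 and 30.8 TPM in RV. It was also above Irf9 in these libraries (23.6 and 20.3 TPM in LV, 22.8 and 20.7 TPM in RV). Stat2 (27.8 and 24.8 TPM in LV, 22.8 and 22.6 TPM in RV) was above Irf3 there only in replicate 2 of LV. In LV at 8 h, Irf3 (33.3 and 28.6 TPM) was above Irf9 (20.7 and 26.8 TPM) in these replicates. RV at 8 h had 344 ± 160.5 TPM of Irf1, 136 ± 157 TPM of Irf7, and 30.9 ± 6.98 TPM of Irf3. The SD of Irf7 exceeded its mean in all 4 stored groups. TPM scaling lowered the median log2 ratio of 8 h to 0 h over all genes, from -0.04 to -0.32 for LV and from -0.12 to -0.46 for RV, so that the order within a group, and not the change, is read from it.

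Across the 18 libraries the 8 genes differed in where the stored libraries of replicate 3 stood. Irf7, Irf9, and Stat2 had correlations of log2 CPM with each other of 0.991 to 0.994, and of 0.982 to 0.992 after the 6 group means were removed. Irf2 had 0.876 to 0.918 with these 3, and 0.965 to 0.979 after removal of the means. Irf1, Irf5, and Irf8 had 0.910 to 0.959 with each other and 0.760 to 0.877 after removal, and Irf3 had -0.153 to 0.00578 with the other 7. After removal of the means Irf3 had 0.800 with Irf8. These values describe 18 libraries that share storage groups and replicate numbers, and carry no test. Among 12716 genes with a mean of at least 1 CPM, those most like Irf7 were Oas1a (r = 0.997), Ifi206 (r = 0.996), and Zbp1 (r = 0.995), which encode an antiviral synthetase, an interferon-induced DNA-binding protein, and a sensor of nucleic acids. Most like Stat2 were Ddx58 (r = 0.997), Oas1a (r = 0.995), and Irf7 (r = 0.994). Most like Irf9 were Irgm2 (r = 0.993), Irgm1 (r = 0.993), and Stat2 (r = 0.993), and most like Irf2 Samhd1 (r = 0.989), Ankfy1 (r = 0.989), and Aida (r = 0.987). For Irf1 they were Nfkbia (r = 0.981), Sema4c (r = 0.978), and Icam1 (r = 0.976), of which Nfkbia encodes the inhibitor of NF-kB and Icam1 an adhesion molecule. For Irf5 they were Nfkbia (r = 0.977), Top1 (r = 0.972), and Rasip1 (r = 0.972), for Irf8 Tmem173 (r = 0.991), Ikzf4 (r = 0.987), and Il4ra (r = 0.986), and for Irf3, with lower values, Ptms (r = 0.867), Mrps26 (r = 0.846), and Vmn1r13 (r = 0.832).

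Upstream of the 8 genes, the ligands were near the limit of detection. Of 21 interferon genes listed, only Ifnb1, which encodes interferon beta, passed the filter on low counts. In LV it was at 1.41, 0.136, and 0.0930 CPM at 0 h, 5.27, 3.23, and 1.18 CPM at 4 h, and 1.84, 1.35, and 0.727 CPM at 8 h. Its RV levels were 1.01, 0.169, and 0.0318 CPM at 0 h, 4.87, 2.26, and 0.172 CPM at 4 h, and 2.63, 1.90, and 0.772 CPM at 8 h. These levels rest on 1 to 198 estimated counts a library, and in each of the 6 groups replicate 1 was the highest and replicate 3 the lowest. The stored libraries of replicate 3, which were the highest for Irf7, Irf9, and Stat2, were thus the lowest of their groups for Ifnb1. With all 9 libraries of a ventricle and no block, Ifnb1 was not called at 8 h, with 1.20 ± 0.88 (adjusted p = 0.433) in LV and 2.13 ± 1.13 (adjusted p = 0.223) in RV. With the block the RV value was 2.66 (adjusted p = 0.026). Without the stored libraries of replicate 3 and with no block, it was called in RV, at 2.47 (adjusted p = 0.0946). The LV value in that setting was 1.42 (adjusted p = 0.398), not called. Ifng, which encodes interferon gamma, had 0 to 4 estimated counts in every library.

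Among 9 genes for interferon receptors and Janus kinases, called rises from 0 h to 8 h numbered 3 for LV and 4 for RV, with no called fall, beside 5.46% and 13.0% of all genes. Jak2, which encodes a kinase of the interferon gamma and cytokine receptors, rose by 1.83 in LV and 2.54 in RV (log2). Ifnar2, for a subunit of the type I receptor, rose by 0.68 and 1.07 in the same order, and Ifngr1, for a subunit of the type II receptor, by 0.81 and 0.80. Jak1 was called in RV alone, at 0.73 (adjusted p = 0.0655) against 0.41 (adjusted p = 0.219) in LV, and the difference between the changes in LV and RV was -0.31 (adjusted p = 0.141) with the replicate block. The partner subunits Ifnar1 (0.18 and 0.49) and Ifngr2 (-0.09 and -0.39) and the kinase gene Tyk2 (-0.08 and -0.37) were not called. Among 17 tested genes for kinases and adaptors that act on IRF3, IRF5, and IRF7, LV had 4 called rises and RV had 6, again with no called fall. Tmem173, which encodes the adaptor STING, rose by 2.63 and 3.62, and Myd88, the adaptor of Toll-like receptors, by 2.25 and 3.09. The kinase gene Ikbke rose by 1.81 and 1.82, and its partner Tank by 0.66 and 1.09. Tbk1, the other IRF3 kinase, was called in RV, at 1.43 (adjusted p = 0.045), and not in LV, at 0.98 (adjusted p = 0.144), with a difference of the changes of -0.41 (adjusted p = 0.0304) in the fit with the block, under the fold minimum. Counts of LV calls fell without replicate 2 or 3 of 0 h, to 0 receptors and Janus kinases and 1 kinase or adaptor, and the former was 1 without replicate 1 of 0 h or replicate 3 of 8 h. For RV it was 2 without any of the 0 h replicates or replicate 3 of 8 h. Traf6, named here after its values were seen, was the 6th in RV, at 0.74 (adjusted p = 0.0352).

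Among 9 tested further IRF and STAT genes, LV had 1 called rise and RV had 3, with no called fall in either. Stat4, a factor of lymphoid cells named here after its values were seen, rose by 2.39 in LV and 1.64 in RV. Its LV call was lost without replicate 2 or 3 of 0 h, replicate 1 or 3 of 8 h, or both stored libraries of replicate 3. Stat3 was at 0.59 (adjusted p = 0.194) in LV and rose by 1.34 in RV, with a difference of the changes of -0.77 (adjusted p = 0.00939) in the fit with the block. Stat5a rose by 0.75 in RV. Irf4, a factor of lymphoid cells, was at -1.70 (adjusted p = 0.185) in LV and -1.17 (adjusted p = 0.224) in RV. For 18 negative regulators, LV had 4 called rises and 1 called fall, and RV had 9 and 1 (those that fell, named after their values were seen, were Otud1 in LV and Pias3 in RV). Socs1, an inhibitor of Janus kinases, rose by 4.02 in LV and 5.27 in RV, Socs3 by 1.63 and 3.02, and Ptpn1 by 1.24 and 1.61. Usp18, which blocks the type I receptor, and Trim21 rose in RV, by 5.10 and 3.39, and were at 4.28 (adjusted p = 0.105) and 3.06 (adjusted p = 0.121) in LV, with differences of the changes of -0.79 (adjusted p = 0.0397) and -0.26 (adjusted p = 0.441). Downstream, called rises were seen for 20 of 30 target genes in LV and 26 in RV, and no called fall, with median log2 fold changes of 4.17 and 4.90 (all genes, -0.02 and -0.07). Usp18 is in both of these lists. Examples are Mx1, an antiviral GTPase, at 6.06 ± 1.42 (adjusted p = 0.052) in LV and 6.79 ± 1.43 (adjusted p = 0.0161) in RV. The chemokine gene Cxcl10 was at 5.86 ± 1.33 (adjusted p = 0.0486) and 6.51 ± 1.39 (adjusted p = 0.0169). The antiviral genes Ifit1 and Rsad2 and the chemokine gene Cxcl9 are the other examples, with Ifit1 at 5.18 and 6.38, Rsad2 at 5.38 and 6.18, and Cxcl9 at 5.67 and 6.15. In LV at 8 h Cxcl10 was at 175, 277, and 1653 CPM, with replicate 3 far above the others. Without the stored libraries of replicate 3 the log2 fold changes in LV and RV were 3.95 and 4.64 for Mx1, 4.22 and 4.88 for Cxcl10, 3.94 and 5.03 for Ifit1, 3.29 and 4.18 for Rsad2, and 4.29 and 4.59 for Cxcl9, and the medians of the 30 targets were 2.31 and 3.08. Replicate 3 was over 2-fold above both other libraries in all 4 stored groups for 27 of these 30 targets and for 4 of the 18 negative regulators (Socs1, Usp18, Trim21, and Nmi), but for none of the receptors, kinases, adaptors, and further IRF and STAT genes. With the stored libraries of replicate 3 left out, 26 targets were called in LV and 25 in RV, and the receptor and Janus kinase counts fell to 1 and 2. Without replicate 2 or 3 of 0 h no target was called in LV, and 1 and 2 were without replicate 1 of 0 h and replicate 3 of 8 h, while RV had 17, 11, and 15 without replicate 1, 2, or 3 of 0 h. Negative regulators called in LV were 1 without replicate 2 or 3 of 0 h, 2 without replicate 3 of 8 h, and 7 without replicate 2 of 8 h.

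Sums of cell type markers differed in how they moved with storage. Only the neutrophil and dendritic cell sums were higher in every stored library than in every 0 h library. The 6 neutrophil markers summed to 0.983 to 2.45 CPM at 0 h, 3.48 to 9.10 CPM at 4 h, and 9.85 to 18.7 CPM at 8 h, mainly through Csf3r, while the defining marker Ly6g had group means of 0 to 0.0408 CPM. The 7 macrophage markers summed to 116 to 209.9, 134 to 189.6, and 169.7 to 318 CPM, with called rises at 8 h for 1 of 7 in LV (Fcgr1) and for 4 in RV (also Adgre1, Mrc1, and C1qb), and were 134 to 196 CPM in the stored libraries of replicate 3 and 168 to 318 CPM in the other stored libraries. The 6 dendritic cell markers summed to 15.8 to 21.3, 29.4 to 52.0, and 29.2 to 60.9 CPM, almost all from Zbtb46, which endothelial cells also express, while the group means were 0.0736 to 0.252 CPM for Flt3, 0.0541 to 0.195 CPM for Clec9a, and 0.0768 to 0.306 CPM for Siglech. The 4 erythrocyte markers were at 2.41 to 6.17 CPM at 0 h and 3.93 to 193 CPM at 8 h, the highest in replicate 1 of LV and the lowest in replicate 2 of RV. The 4 B cell markers summed to at most 1.55 CPM and the 4 T cell markers to at most 4.00 CPM. In bulk RNA, more cells of a type and more RNA per cell cannot be told apart, and the part of these cell types in the levels of Irf5, Irf8, and the other genes was not tested.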

How the data were processed

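RNA from left and right ventricles was sequenced with a directional kit, and the authors pseudoaligned the reads to GRCm38 transcripts with kallisto and deposited estimated counts and TPM for each transcript. Here the estimated counts of 110203 of 111462 transcripts that matched GENCODE M21 were summed to 34989 genes and rounded, and TPM were summed and used to compare genes. After filterByExpr and TMM scaling, differences came from edgeR 4.0.16 (R 4.3.3) and its quasi-likelihood F-test, over the 9 libraries of a ventricle for storage and over all 18 for LV against RV, with Benjamini-Hochberg adjustment over all genes tested (threshold 0.1, fold over 1.5). Depth ranged from 22552581 to 46236771 estimated counts a library. Alternatives were DESeq2 1.42.0, length offsets, other size factors, no filter, a Y-linked covariate, the replicate block, libraries left out, and, chosen after seeing the data, the stored libraries of replicate 3 left out. The block was the replicate number within a ventricle for storage, and the same-numbered pair at a storage time for LV against RV. Replicate numbers come from the labels. Deviations from group means went with the number (each r over 0.1) in RV (mean r 0.172 for 0 and 4 h, 0.218 for 0 and 8 h, 0.416 for 4 and 8 h), between 4 and 8 h in LV (0.442), and between the ventricles (0.442, 0.562, and 0.600 at 0, 4, and 8 h), but not for LV 0 h with 4 or 8 h. Each heart had a single storage time, so that same-numbered libraries of different times came from different hearts. Their Y-linked levels also differed between 0 h and storage for replicates 2 and 3. The number block of the storage comparisons is therefore not a pairing by animal. Named genes were the 8, up to 5 called genes of each list ranked by change at 8 h with a mean of at least 1 CPM, a set of receptor, kinase, and family genes, and the 3 genes most correlated with each. The genes, lists, and tests were chosen with earlier results of these data known. Some genes of these lists are not reported here. The test was also run on simulated libraries with the same spread for every gene and no replicate that stood apart, unlike these data.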

Additional observations from a re-analysis of the deposited data

Results flagged for a closer look

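The change from 0 h to 8 h of storage differed between the ventricles for 4 of the 8 genes by a test of the difference itself. The block in this fit was the same-numbered pair of LV and RV at a storage time. The LV change was smaller than the RV change by a log2 difference of -0.87 for Irf7 (adjusted p = 0.00688), -0.76 for Irf8 (adjusted p = 0.0203), -0.71 for Irf9 (adjusted p = 0.0105), and -0.67 for Stat2 (adjusted p = 0.00952), in edgeR with adjustment over 15093 genes, of which 4.72% were called in this direction. Without the block none of the 4 was called (each adjusted p = 1). Each of the 4 genes was higher in RV than in LV in 3 of 3 same-numbered pairs at 8 h, and Irf7, Irf9, and Stat2 were higher in LV in 3 of 3 pairs at 0 h. The log2 ratio of LV to RV in replicate 3 at 0 h was only 0.0107 for Irf9 and 0.0087 for Stat2. The share of all genes with such pairs is not given here. Leaving out 1 pair at a time gave 3 to 5 called genes with the block, 3 without the pair of replicate 2 at 0 h or of replicate 1 at 8 h, and the differences of the 4 genes were below 0 in each of these fits. Without the block, and without replicate 3 of RV at 8 h, the differences of Irf7, Irf9, and Stat2 were above 0 (0.78, 0.14, and 0.41). That fit kept replicate 3 of LV at 8 h. With the block and without the stored pairs of replicate 3, the differences of these genes were -0.86, -0.83, and -0.71. Groups of 3 libraries were too small for a test of single libraries that stand apart.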

How the results depend on the processing

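The number of the 8 genes called in LV at 4 h (1) was 3 with DESeq2, 4 with DESeq2 and length offsets, 0 with edgeR and length offsets, 2 with the Y-linked covariate, 2 with the replicate block, 4 without the stored libraries of replicate 3, and 0 at an adjusted p under 0.05 with no fold minimum. In RV at 4 h (3) it was 6 with DESeq2 with or without length offsets, 5 with no filter, the Y-linked covariate, the replicate block, all 18 libraries in 1 model, or the stored libraries of replicate 3 left out, and 1 at the stricter threshold, which gave 1 in LV at 8 h (6). At 8 h the count was 4 to 6 in LV and 5 to 7 in RV under the other alternatives. With 1 library left out it ranged over 0 to 4 and 0 to 6 in LV and 0 to 5 and 2 to 7 in RV at 4 and 8 h. Between the ventricles (0 without the block), the block gave 3 at 8 h and 4 for the change to 8 h, the block without the stored pairs of replicate 3 gave 1 and 4, and leaving out a library or pair 0 to 3 and 0 to 5. In LV against 0 h the deviations did not go with the numbers, and in the comparisons where they did, the block changed no call of the 8 genes beyond those given. The share of all genes called is given above only for the block and for the stored libraries of replicate 3 left out. Shifts of these counts therefore cannot be read as particular to the 8 genes, and their cause was not tested.

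Of the lists in LV at 8 h, the further IRF and STAT genes called (1) were 2 with DESeq2 and length offsets and 0 without the stored libraries of replicate 3 or at the stricter threshold. Receptors and Janus kinases (3) were 1 in both of the last settings, negative regulators (4) 2 and targets (20) 5 at the stricter threshold. In RV the ligands (0) were 1 with the replicate block or without the stored libraries of replicate 3, and the receptors and Janus kinases (4) were 2 without those libraries. With 1 library left out the LV ranges were 0 to 1 for further IRF and STAT genes, 0 to 1 for ligands, 0 to 3 for receptors and Janus kinases, 1 to 5 for upstream kinases and adaptors, 1 to 7 for negative regulators, and 0 to 28 for targets, and the RV ranges were 2 to 6 for receptors and Janus kinases and 11 to 28 for targets. With TPM in place of CPM the log2 ratio of 8 h to 0 h means was -0.54 for Irf3 in LV (-0.16) and -0.54 in RV (-0.04), and 0.74 for Irf5 in RV (1.40), with the median of all genes at -0.32 and -0.46 in place of -0.04 and -0.12.

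No call of a gene changed direction. The direction of differences that were not called did change: Irf5 in RV at 8 h against 4 h was at -0.19 without the stored libraries of replicate 3. In the same setting Irf5 in LV was at -0.024 and Irf3 in RV at -0.015, and with the block Irf2 was at 0.012 in LV against RV at 4 h. With 1 library left out, the LV differences of 8 h against 4 h ranged over -0.020 to 0.58 (Irf1), -0.57 to 1.29 (Irf2), -0.12 to 0.49 (Irf5), -0.72 to 2.44 (Irf7), -0.49 to 1.23 (Irf9), and -0.48 to 1.68 (Stat2), and the RV ones over -0.52 to 1.53 (Irf2), -0.13 to 0.55 (Irf5), -0.27 to 2.98 (Irf7), and -0.17 to 1.96 (Stat2). Irf3 in RV at 8 h against 0 h ranged over -0.11 to 0.14, and it was at 0.026 with DESeq2 or RLE size factors. LV against RV ranged over -0.78 to 0.73 (Irf1), -0.037 to 0.15 (Irf2), -0.070 to 0.061 (Irf3), and -0.46 to 0.12 (Irf5) at 0 h, and at 4 h over -0.90 to 0.71 (Irf2), -0.35 to 0.021 (Irf3), -0.37 to 0.23 (Irf8), -1.63 to 1.42 (Irf7), -0.81 to 0.65 (Irf9), and -1.23 to 0.83 (Stat2). At 8 h it ranged over -1.36 to 0.87 (Irf2), -0.78 to 0.030 (Irf5), -2.25 to 1.03 (Irf7), -1.44 to 0.26 (Irf9), and -1.60 to 0.58 (Stat2). The ventricle difference of the change to 4 h ranged over -1.10 to 0.41 (Irf1), -0.94 to 0.67 (Irf2), -0.34 to 0.031 (Irf3), -0.48 to 0.10 (Irf5), -1.88 to 1.17 (Irf7), -0.94 to 0.52 (Irf9), and -1.40 to 0.66 (Stat2), and that to 8 h over -1.37 to 0.14 (Irf1), -1.41 to 0.83 (Irf2), -0.60 to 0.21 (Irf5), -2.50 to 0.78 (Irf7), -1.56 to 0.14 (Irf9), and -1.77 to 0.41 (Stat2). With the block and 1 pair left out, both differences of the change stayed below 0 for each of the 8 genes.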
